A study of Homo sapiens with 12 samples.

Results

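The Polycomb repressive complex genes are 37 named genes that encode the subunits of Polycomb repressive complexes 1 and 2 (PRC1 and PRC2) and of the Polycomb deubiquitinase PR-DUB. They were taken from a gene table of 85298 identifiers by symbol, without use of their measured values. Earlier results of these data were known when they were chosen. All 37 were found, and all 37 were among the 26366 genes with enough counts to be tested. The study asked which transcripts depend on SIDT2, a lysosomal membrane protein linked to the uptake of RNA into lysosomes, in HEK 293T cells, an established human embryonic kidney line that carries adenoviral and SV40 sequences. Poly(A) RNA was sequenced from 3 groups of 4 biological replicates, all harvested 72 h after lentiviral transduction in the presence of polybrene: scramble shRNA, SIDT2 shRNA-B and SIDT2 shRNA-D. Every group, controls included, carried a lentiviral hairpin, so no untransduced cells enter any comparison, and each group was a transduced population of 1 cell line. The 2 SIDT2 hairpins were compared with the same 4 scramble libraries, so their fold changes share those controls.

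Polycomb complexes keep developmental genes silent. PRC2 methylates a lysine on the tail of histone H3 through EZH2 or EZH1, and PRC1 attaches ubiquitin to a nucleosomal histone through RNF2 or RING1, each mark helping to recruit the other complex. Canonical PRC1 carries a CBX protein that reads the methyl mark and compacts chromatin, variant PRC1 carries RYBP or YAF2 in its place and lays down most of the ubiquitin, and PR-DUB removes it.

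SIDT2 itself was measured first, as the check of the labels. It stood at 21.7, 20.5, 18.3 and 19.7 CPM (counts scaled to library size) in scramble libraries 1 to 4, at 6.61, 8.27, 5.77 and 6.75 CPM with shRNA-B and at 5.47, 7.20, 7.58 and 7.55 CPM with shRNA-D. It fell by 1.55 on the log2 scale with shRNA-B (SE 0.14, adjusted p = 0.000146, edgeR's quasi-likelihood F-test, adjusted over all tested genes by the Benjamini-Hochberg method) and by 1.53 with shRNA-D (SE 0.14, adjusted p = 0.000515). Library totals ran from 68737402 to 102644699 counts. Of 6 genes used as markers of the line, all were detected, with a summed level of 953 to 1080 CPM (scramble), 885 to 1098 CPM (shRNA-B) and 904 to 956 CPM (shRNA-D), and VIM gave most of it. In a fit with replicate number as a block, 4 of the 6 were called with shRNA-B (NEFM higher, KRT8, NEFL and PAX2 lower) and 4 between the hairpins (3 higher and 1 lower with shRNA-D), and all 6 were called for replicate number. Marker sums of other cell types were low in every group: 10.6 to 18.7 CPM for 6 fibroblast genes, nearly all of it COL1A1, and 0.131 to 0.295 CPM for 3 hepatocyte genes. The leukocyte genes PTPRC, CD3E, LYZ and CD14 each stood at 0.307 CPM or below in every library. The 5 neuronal genes summed to 24.6 to 32.6 CPM (scramble), 19.5 to 25.4 CPM (shRNA-B) and 22.5 to 28.3 CPM (shRNA-D), and 1 of them was lower with shRNA-B in the fit with the block. The part of these marker differences in the values of the members was not tested. In RNA from a whole culture, fewer cells with a transcript and less of it per cell cannot be told apart.

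Libraries with the same replicate number resembled each other across groups, so each comparison was also fitted with the number as a block, which sets each hairpin library against the scramble library of the same number. Below, a gene is called when its adjusted p is under 0.05, and a call made only with the block is named as such. The library shRNA-D 1 held the lowest value of all 12 for 10 of the 37 members, and scramble 3 held the highest for 9. Calls of members that were lost without either are given as such. Medians over the members and calls of genes outside them were not checked in this way.

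**Figure D1:**
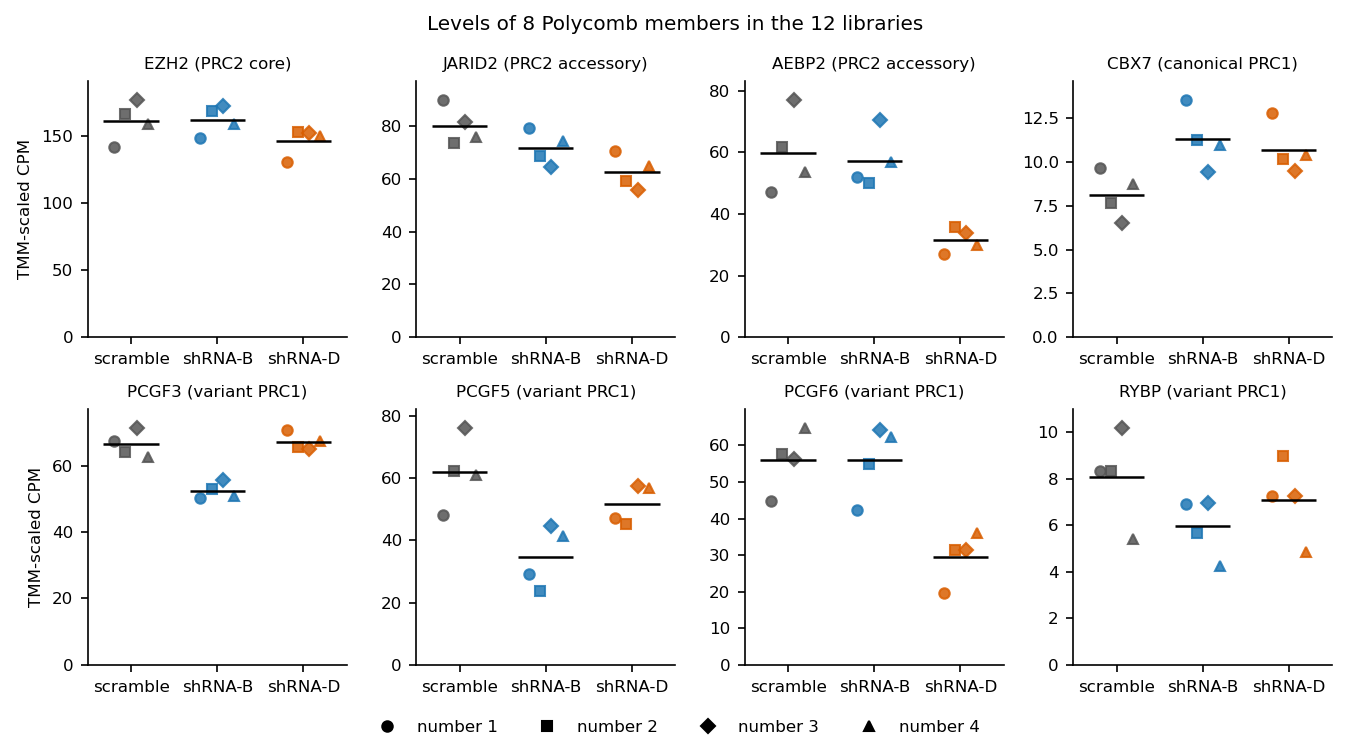
TMM-scaled CPM (y axis, from 0) of 8 members in the scramble, shRNA-B and shRNA-D groups. Each point is 1 library, its shape gives the replicate number, and the line is the group mean: AEBP2 and PCGF6 were low in all 4 shRNA-D libraries, PCGF5 and PCGF3 in all 4 shRNA-B libraries, and CBX7 was higher with each hairpin than in the scramble library of the same number.

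Levels of the members were first put on a per-length scale (CPM per kilobase of the longest principal transcript in GENCODE release 29), the only scale on which different genes are compared here. In the scramble libraries EZH2 stood at a mean of 60.8 CPM per kb (53.6 to 66.7) and EZH1 at 7.84 (6.64 to 9.37), so the 2 methyltransferases did not overlap. BMI1 (mean 37.6 CPM per kb, 30.9 to 45.2) likewise lay above PCGF2 (mean 5.09, 3.64 to 6.56), the other canonical PCGF subunit. Among the CBX readers of the methyl mark, CBX6 (mean 26.2 CPM per kb) and CBX2 (mean 21.3) exceeded CBX8 (mean 4.29) and CBX7 (mean 2.00). Of the PCGF proteins that define variant PRC1, PCGF6 was highest at a mean of 25.1 CPM per kb (20.1 to 29.01), above PCGF3 (mean 11.7, 11.0 to 12.5), PCGF1 (mean 8.80) and PCGF5 (mean 8.66). YAF2 (mean 9.12 CPM per kb, 7.21 to 11.3) exceeded its relative RYBP (mean 1.12, 0.749 to 1.41). The ubiquitin ligases RNF2 (15.7 to 23.9 CPM per kb) and RING1 (14.0 to 16.2) overlapped. These levels assume 1 transcript length per gene, and the isoforms present in these cells were not analysed here.

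With shRNA-D, 1 of the 37 members was called, and it was AEBP2, which was lower. Over all tested genes 0.269% were called in this comparison and 0.197% were called lower. At an unadjusted p under 0.05 were 4 members, beside 4.66% of all tested genes. The replicate block gave 4 calls, beside 3.30% of all tested genes: CBX7 was higher (1.05% of all genes) and JARID2, AEBP2 and PCGF6 were lower (2.26%). The median log2 fold change of the 37 was -0.13, beside -0.01 over all tested genes, with 28 of 37 fitted below 0. The share of all tested genes fitted below 0 is not given here. In lists described below, 29 of 34 Polycomb partners, 18 of 21 opposing factors and 18 of 24 targets outside HOX were also fitted below 0. The counts were 21 of 38 for HOX genes and 8 of 16 for cell cycle genes. With shRNA-B no member was called, beside 0.876% of all tested genes. At an unadjusted p under 0.05 were 3 members, beside 7.75% of all tested genes, limma-voom called 0, and DESeq2 called PCGF3 and PCGF5. Here and below, the shares of all tested genes that limma-voom and DESeq2 called are not given, so their counts have no background. The block gave 4 calls for shRNA-B, beside 9.58% of all tested genes, so this share was close to the background: CBX7 was higher (4.04% of all genes) and PCGF3, PCGF5 and RYBP were lower (5.54%). The median log2 fold change of the members with shRNA-B was -0.01, beside 0.00 over all tested genes.

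Averaged over both hairpins no member was called, beside 0.231% of all tested genes. At an unadjusted p under 0.05 were 7 members, beside 5.47% of all tested genes, limma-voom called 0, and DESeq2 called AEBP2. The block gave 5 calls, beside 5.07% of all tested genes: CBX7 was higher (1.62% of all genes) and JARID2, AEBP2, PCGF5 and PCGF6 were lower (3.45%). The direct comparison of the hairpins called 3 members, beside 0.952% of all tested genes: relative to shRNA-B, PCGF3 was higher under shRNA-D (0.467% of all genes) and AEBP2 and PCGF6 were lower (0.485%). At an unadjusted p under 0.05 were 7, beside 9.35% of all tested genes. The block gave 10 calls, beside 12.9% of all tested genes: PHC2, SCMH1, PCGF3 and PCGF5 were higher (5.91% of all genes) and JARID2, AEBP2, PCGF1, PCGF6, BCOR and BAP1 were lower (6.95%). That split of 4 higher to 6 lower depended on scaling: with the block and DESeq2 size factors it was 4 to 4, and with the block and upper-quartile or total-count scaling it was 6 to 3, where PHC1 and RBBP4 were called higher and JARID2, BCOR and BAP1 were not called.

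**Figure D2:**
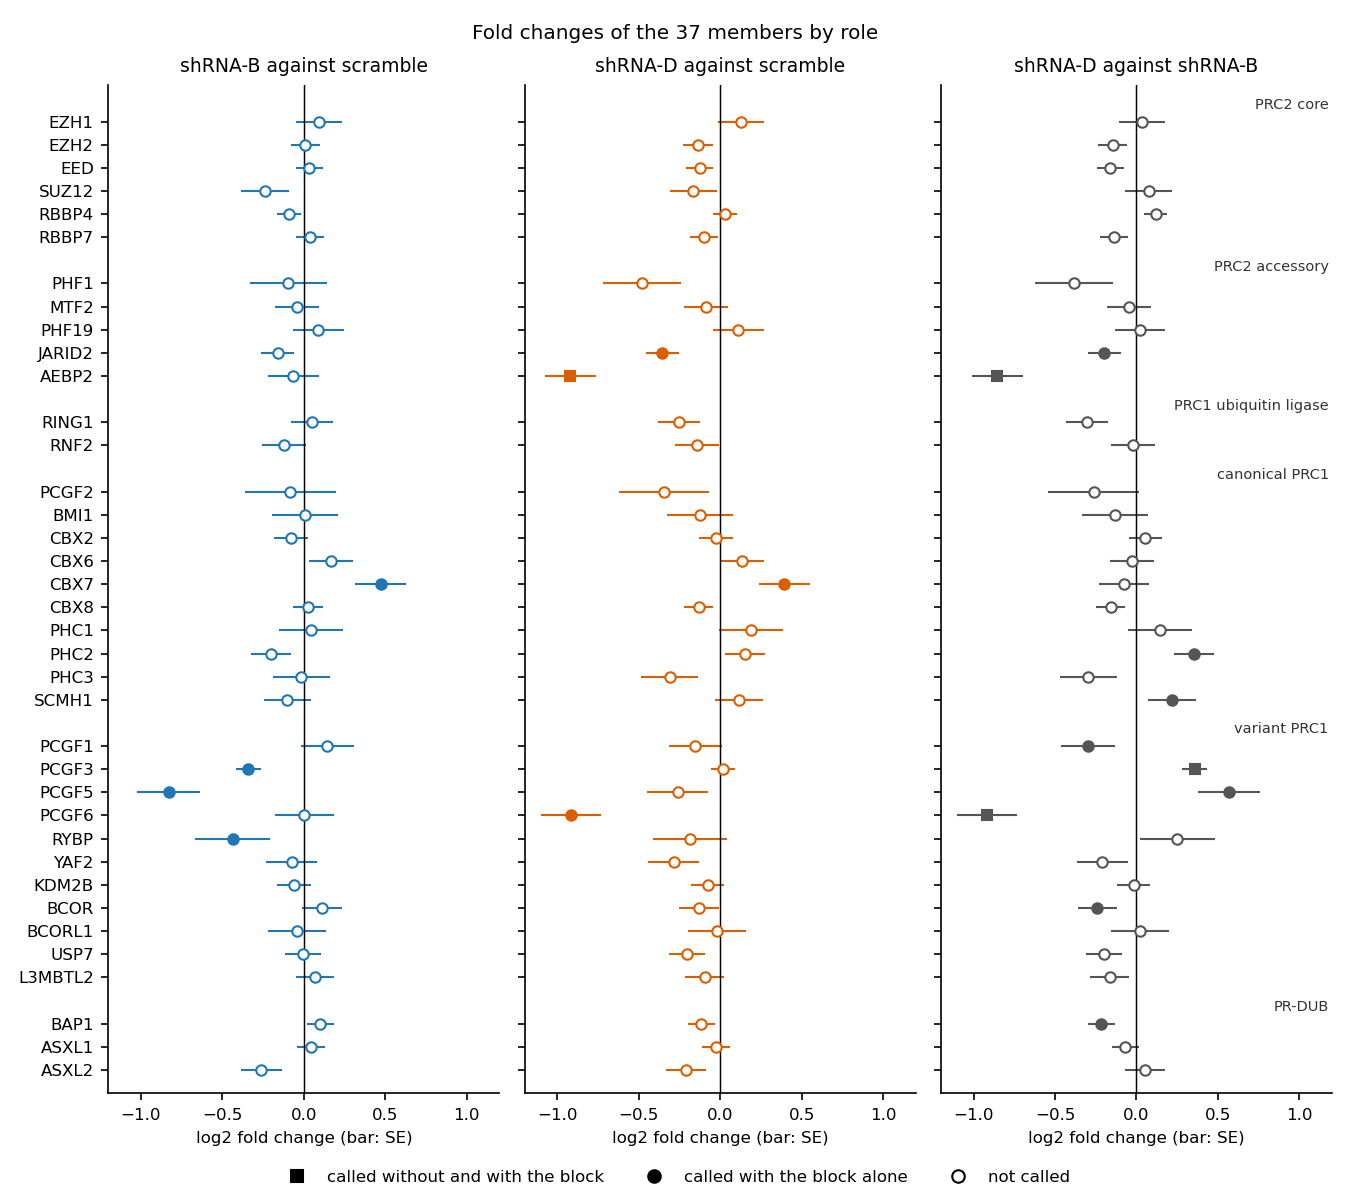
Log2 fold changes (x axis, bars ± SE from the fit without the block) of the 37 members, grouped by role from top to bottom, for shRNA-B against scramble, shRNA-D against scramble and shRNA-D against shRNA-B. Squares were called with and without the replicate block, filled circles with the block alone and open circles in neither: AEBP2 and PCGF6 are the lowest with shRNA-D and lie near 0 with shRNA-B, while PCGF5 is the lowest with shRNA-B.

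Some of the members that were low with 1 hairpin share a short stretch of sequence in their 3′ untranslated region (3′ UTR). Each 7-base word was ranked by how much lower the genes with that word in their longest GENCODE release 29 3′ UTR were with a hairpin than the genes without it, as the mean difference divided by its standard error, on 12340 expressed genes that are not members and with UTR length and base composition accounted for. The ranking is a description, with no test, and was chosen after results of these data were known. The first word for shRNA-B was GTCAACA, present in 962 of the 12340 genes (7.80%), whose median log2 fold change with shRNA-B was -0.17, beside 0.02 for the rest. The first word for shRNA-D was TACTACA, present in 1082 genes (8.77%), whose median log2 fold change with shRNA-D was -0.14, beside -0.03 for the rest. Only the transcript strand was searched, and neither word is part of the other. The hairpin sequences were not used here, so whether these words match them was not tested.

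GTCAACA occurred in the 3′ UTR of 3 of the 37 members (8.11%), with 2 matches in PCGF5 and 1 each in RBBP4 and ASXL2. TACTACA occurred in 6 of 37 (16.2%), with 2 matches in AEBP2 and 1 each in PCGF6, JARID2, PHC3, CBX8 and PHC1. The matches in the members the results turn on are shown with 9 bases on either side, 5′ to 3′ on the transcript, with the word in capitals.
PCGF5 first match: tgtttactcGTCAACAgattgcaca
PCGF5 second match: ggagagataGTCAACAaatttattt
AEBP2 first match: ttttcacttTACTACAgtgatataa
AEBP2 second match: cccaattttTACTACAggttggcaa
PCGF6: tgtagagacTACTACAaaattggaa
JARID2: tcaggtttgTACTACAaggtttaat
PHC1: accagctttTACTACAaatggatga
On GRCh38, the build of GENCODE release 29, the PCGF5 windows lie at chr10:91278359-91278383 and chr10:91283515-91283539 on the plus strand. The AEBP2 windows lie at chr12:19519610-19519634 and chr12:19520764-19520788, plus strand. The PCGF6 window is at chr10:103302878-103302902 on the minus strand. The JARID2 window is at chr6:15521976-15522000 and the PHC1 window at chr12:8940966-8940990, both on the plus strand. PHC1 is shown because it carried the shRNA-D word and did not lie below 0.

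The 3 members with the shRNA-B word had log2 fold changes with shRNA-B from -0.83 to -0.09 (median -0.26), beside a median of 0.00 for the other 34. The 6 members with the shRNA-D word ran from -0.92 to 0.19 with shRNA-D (median -0.33, 5 below 0), beside a median of -0.12 for the other 31. Members without the word also moved: PCGF3 and RYBP, both called lower with shRNA-B with the block, do not hold GTCAACA in this window, and CBX7 was called higher with the block with both hairpins. All 12340 genes were also ranked for words whose carriers were higher in the mean of both hairpins. The first such word, CTAACTC (860 genes, 6.97%), had a carrier median of 0.01, beside -0.02 for the rest. It occurred in 0 of the 37 members. These values come from the same contrasts as the calls and add no independent support to them.

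**Figure D3:**
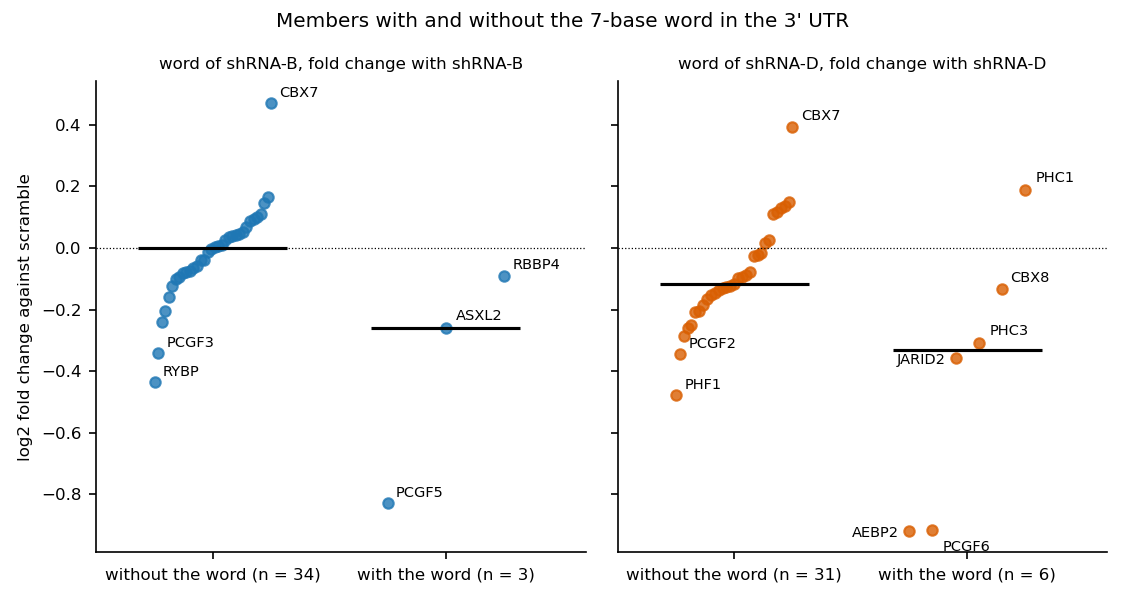
Log2 fold change against scramble (y axis) of the 37 members without and with the leading 3′ UTR word of each hairpin: shRNA-B on the left (34 without, 3 with) and shRNA-D on the right (31 without, 6 with). Each point is 1 member and each line a median; with the word, PCGF5 is lowest on the left and AEBP2 and PCGF6 on the right, where PHC1 lies above 0.

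Among the 6 core genes of PRC2, none was called in any of the 4 comparisons, with or without the block, apart from RBBP4 between the hairpins under the scalings just named. EZH2, the main methyltransferase, stood at 141, 166, 176 and 159 CPM in scramble libraries 1 to 4, at 148, 168, 172 and 159 CPM with shRNA-B and at 130, 153, 152 and 150 CPM with shRNA-D. Each shRNA-D library was below the scramble library of its number, but the groups overlapped. EZH2 had a log2 fold change with shRNA-D of -0.14 (SE 0.09, adjusted p = 1, and 0.195 with the block), and with shRNA-B of 0.01 (SE 0.09, adjusted p = 0.996). SUZ12, the scaffold of the complex, had 90.7, 99.0, 119 and 98.9 CPM in scramble, 90.6, 59.1, 95.4 and 100 CPM with shRNA-B, and 95.2, 81.6, 89.7 and 97.2 CPM with shRNA-D. Its lowest value was that of library shRNA-B 2, and the other hairpin libraries lay between 81.6 and 100 CPM, so the groups overlapped. Averaged over both hairpins, SUZ12 had the smallest p of the core genes, at a log2 fold change of -0.20 (SE 0.13, adjusted p = 1). The other 4 were EZH1, the second methyltransferase, EED, which binds the methyl mark, and the histone-binding WD-repeat proteins RBBP4 and RBBP7. Their log2 fold changes with either hairpin lay between -0.13 and 0.13. A partly duplicated SUZ12 copy, SUZ12P1, was counted separately at 0 to 1.53 CPM.

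The PRC2 accessory genes included the member with the only call for shRNA-D without the block. AEBP2 and JARID2 belong to one version of PRC2, in which JARID2 stimulates the enzyme and AEBP2 helps to hold it on nucleosomes, and PHF1, MTF2 and PHF19 belong to the other, where they bind CpG-rich DNA. AEBP2 was at 47.3, 61.9, 76.9 and 53.6 CPM in scramble libraries 1 to 4, at 51.9, 49.99, 70.5 and 56.9 CPM with shRNA-B and at 26.9, 35.9, 33.8 and 30.0 CPM with shRNA-D. All 4 shRNA-D libraries lay below all 8 others, while shRNA-B and scramble overlapped. AEBP2 fell by 0.92 on the log2 scale with shRNA-D (SE 0.16, adjusted p = 0.0265), to 0.529 of scramble, and by 0.90 with the block (SE 0.09, adjusted p = 0.000179). With shRNA-B its log2 fold change was -0.06 (SE 0.16, adjusted p = 0.992), and the difference between the hairpins was -0.86 (SE 0.16, adjusted p = 0.0207). Without the block, the shRNA-D call was lost when any of 5 of the 12 libraries was left out: the adjusted p was 0.0681 without scramble 2, 0.0597 without scramble 3, 0.0857 without shRNA-D 1, 0.0619 without shRNA-D 3 and 0.0650 without shRNA-D 4, at log2 fold changes of -0.93 to -0.76. The call against shRNA-B was lost only without shRNA-D 1 (adjusted p = 0.0632). With the block both calls held in all 12.

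JARID2 stood at 89.7, 73.7, 81.5 and 75.7 CPM in scramble, at 79.4, 68.5, 64.6 and 74.4 CPM with shRNA-B and at 70.5, 59.0, 55.9 and 64.9 CPM with shRNA-D. Its shRNA-D libraries lay below every scramble library, and its shRNA-B libraries were lower than the scramble library of the same number in 4 of 4. JARID2 had a log2 fold change of -0.36 with shRNA-D (SE 0.10, adjusted p = 0.368), and it was called lower with the block (-0.36, SE 0.06, adjusted p = 0.00418), also when any 1 of the 12 libraries was left out. The block call for the mean of both hairpins (adjusted p = 0.00917) was lost without scramble 1 (adjusted p = 0.0623) or scramble 3 (adjusted p = 0.0582). With shRNA-B it was -0.16 (SE 0.10, adjusted p = 0.857, and 0.113 with the block). The lower level with shRNA-D than with shRNA-B, called only with the block (adjusted p = 0.0434), was lost without any of 11 of the 12 libraries (adjusted p up to 0.226). The Polycomb-like genes MTF2 and PHF19 had log2 fold changes between -0.09 and 0.11 with either hairpin. PHF1 had the lowest level of the 5 accessory genes, at 0.487 to 0.973 CPM over all 12 libraries. It was at -0.48 with shRNA-D (SE 0.24, adjusted p = 1).

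Both ubiquitin ligases of PRC1 went without a call. RNF2, the more widely used ligase, had 56.6, 67.5, 86.2 and 61.6 CPM in scramble, 57.3, 55.1, 76.0 and 61.3 CPM with shRNA-B and 57.9, 65.0, 65.6 and 57.4 CPM with shRNA-D. Its high value in scramble 3 was matched by the highest value of each hairpin group in library 3, and the groups overlapped. For the mean of both hairpins its log2 fold change was -0.13 (SE 0.12, adjusted p = 1). RING1, its paralog, had log2 fold changes of 0.05 with shRNA-B and -0.25 with shRNA-D (SE 0.13 for each). Libraries shRNA-D 2 and 3 had its lowest values, 18.6 and 17.8 CPM. RING1 and PHF1 lie in a part of chromosome 6 that is present in several alternative haplotypes, and reads could have been shared with such copies under identifiers that carry no symbol.

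Of the 10 canonical PRC1 genes, CBX7 was the only one called against scramble, and only with the block, apart from PHC1, which was called higher with shRNA-D when the block was combined with total-count scaling. CBX7 reads the methyl mark and is best known for silencing the CDKN2A locus. It stood at 9.66, 7.63, 6.54 and 8.73 CPM in scramble libraries 1 to 4, at 13.5, 11.3, 9.42 and 11.0 CPM with shRNA-B and at 12.8, 10.2, 9.48 and 10.4 CPM with shRNA-D. Every hairpin library was above the scramble library of its own number, 4 of 4 for each hairpin, while the groups overlapped because scramble 1 (9.66 CPM) exceeded library 3 of both hairpins. The log2 fold change was 0.47 with shRNA-B (SE 0.16, adjusted p = 0.31) and 0.39 with shRNA-D (SE 0.16, adjusted p = 0.871). With the block these were 0.47 (SE 0.07, adjusted p = 0.000621) and 0.40 (SE 0.07, adjusted p = 0.00488), and both calls held when any 1 of the 12 libraries was left out. For the mean of both hairpins with the block it was 0.44 (SE 0.06, adjusted p = 0.000938). CBX7 did not pass between the hairpins (log2 difference -0.08, SE 0.15, adjusted p = 0.954).

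BMI1, a PCGF subunit of canonical PRC1, had 106, 113, 142 and 155 CPM in scramble, 117, 83.2, 145 and 173 CPM with shRNA-B and 109, 99.6, 114 and 151 CPM with shRNA-D. Values were high in library 4 of every group and the groups overlapped. BMI1 had log2 fold changes of 0.01 with shRNA-B and -0.12 with shRNA-D (SE 0.20 for each, adjusted p = 0.999 and 1). A read-through transcript with the neighbouring COMMD3 gene was counted separately at 1.87 to 7.60 CPM.

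PHC2 and SCMH1, which carry the SAM domains through which PRC1 polymerises, differed between the hairpins with the block alone. PHC2 was at 55.8, 67.6, 57.3 and 59.4 CPM in scramble, at 43.6, 66.3, 51.5 and 47.0 CPM with shRNA-B and at 63.0, 71.1, 70.0 and 62.5 CPM with shRNA-D. In all 4 numbers the order was shRNA-B below scramble below shRNA-D. The log2 difference of shRNA-D from shRNA-B was 0.35 (SE 0.12, adjusted p = 0.303), and 0.37 with the block (SE 0.07, adjusted p = 0.00388). SCMH1 was at 38.1, 56.0, 50.5 and 46.3 CPM in scramble, at 34.7, 53.0, 49.1 and 41.3 CPM with shRNA-B and at 44.8, 57.4, 54.2 and 50.8 CPM with shRNA-D. It followed the same order in all 4 numbers, with a difference of 0.23 with the block (SE 0.06, adjusted p = 0.0148) that was lost without shRNA-B 1 (adjusted p = 0.0629) or shRNA-D 1 (adjusted p = 0.0716). Neither gene was called against scramble. The other 6 canonical genes were PCGF2, the CBX readers CBX2, CBX6 and CBX8, and PHC1 and PHC3. Their log2 fold changes ran from -0.08 to 0.17 with shRNA-B and from -0.35 to 0.19 with shRNA-D, with none called. CBX8, which holds the shRNA-D word, did not overlap scramble (14.1 to 15.3 CPM with shRNA-D, 15.8 to 16.8 in scramble) at a log2 fold change of only -0.13. In all, 2 of 37 members did not overlap scramble with shRNA-B and 4 of 37 with shRNA-D, beside 4.95% and 3.61% of all tested genes.

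Of the 11 variant PRC1 genes, 3 were called with shRNA-B in edgeR's fit with the block, all lower, beside 5.54% of all tested genes, and none without it, where DESeq2 called 2. PCGF3 and PCGF5, a close pair that define the variant complexes which start silencing of the inactive X chromosome in mice, were both lower with shRNA-B. PCGF5 was at 48.3, 62.3, 76.1 and 60.9 CPM in scramble libraries 1 to 4, at 29.3, 23.7, 44.7 and 41.5 CPM with shRNA-B and at 47.1, 45.3, 57.4 and 56.7 CPM with shRNA-D. All 4 shRNA-B libraries were below all 8 others, and the shRNA-D libraries overlapped scramble while lying below the scramble library of the same number in 4 of 4. The log2 fold change with shRNA-B was -0.83 (SE 0.19, adjusted p = 0.0672), and with the block PCGF5 fell by 0.85 (SE 0.12, adjusted p = 0.00236). The fit without the block gave a ratio of 0.562. With shRNA-D it was -0.26 (SE 0.19, adjusted p = 1, and 0.359 with the block). The difference of shRNA-D from shRNA-B was 0.57 (SE 0.19, adjusted p = 0.27), called with the block (0.60, SE 0.12, adjusted p = 0.0118). The block call of PCGF5 for the mean of both hairpins (adjusted p = 0.0147) was lost without scramble 3 (adjusted p = 0.0861).

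PCGF3 was at 67.5, 64.2, 71.2 and 62.5 CPM in scramble, at 50.2, 53.1, 55.6 and 50.8 CPM with shRNA-B and at 70.6, 65.7, 64.9 and 67.3 CPM with shRNA-D. The shRNA-B libraries lay below all 8 others, and within each group the values were close together. PCGF3 had a log2 fold change with shRNA-B of -0.34 (SE 0.08, adjusted p = 0.059), called with the block (-0.34, SE 0.06, adjusted p = 0.00201). The difference of shRNA-D from shRNA-B was 0.36 (SE 0.08, adjusted p = 0.0441). That call was lost without any of 8 of the 12 libraries, namely scramble 2, shRNA-B 1, 3 and 4, and each shRNA-D library, with adjusted p from 0.0599 without scramble 2 to 0.121 without shRNA-D 1. With the block it was called in all 12 (adjusted p = 0.00126 with every library).

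PCGF6, the subunit of the variant complex that silences germline genes, was at 44.9, 57.5, 56.4 and 64.7 CPM in scramble, at 42.5, 54.9, 64.2 and 62.3 CPM with shRNA-B and at 19.6, 31.4, 31.3 and 36.1 CPM with shRNA-D. All 4 shRNA-D libraries lay below all 8 others, and library 1 was the lowest of each group. The log2 fold change with shRNA-D was -0.92 (SE 0.18, adjusted p = 0.0672), a ratio of 0.530, and with the block PCGF6 fell by 0.94 (SE 0.07, adjusted p = 1.3e-05), also without any 1 of the 12 libraries. With shRNA-B it was 0.00 (SE 0.18, adjusted p = 1). PCGF6 was lower with shRNA-D than with shRNA-B by a log2 difference of -0.92 (SE 0.18, adjusted p = 0.033). That call was lost without shRNA-B 3 (adjusted p = 0.0836), shRNA-B 4 (0.0758), shRNA-D 1 (0.0550), shRNA-D 2 (0.0767) or shRNA-D 3 (0.0790), and held with the block in all 12.

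RYBP, which takes the place of CBX proteins in variant PRC1 and stimulates the ligase, was at 8.35, 8.33, 10.2 and 5.41 CPM in scramble, at 6.92, 5.69, 6.98 and 4.25 CPM with shRNA-B and at 7.24, 8.98, 7.25 and 4.87 CPM with shRNA-D. Library 4 was the lowest of each group, and each shRNA-B library was below the scramble library of its number while the groups overlapped. The log2 fold change with shRNA-B was -0.44 (SE 0.23, adjusted p = 0.737), called with the block (-0.43, SE 0.10, adjusted p = 0.0182) but not without scramble 3 (adjusted p = 0.0730) or shRNA-B 3 (adjusted p = 0.0520).

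PCGF1 and BCOR, parts of the variant complex that KDM2B brings to CpG islands, differed between the hairpins with the block alone. PCGF1 was at 12.5, 18.3, 17.7 and 14.7 CPM in scramble, at 16.2, 20.7, 19.1 and 13.8 CPM with shRNA-B and at 11.7, 16.0, 16.0 and 13.02 CPM with shRNA-D. BCOR was at 274, 362, 387 and 300 CPM in scramble, at 334, 416, 348 and 330 CPM with shRNA-B and at 270, 334, 298 and 307 CPM with shRNA-D. In both genes each shRNA-D library was below the shRNA-B library of its number, and the groups overlapped. With the block the differences were -0.30 for PCGF1 (SE 0.07, adjusted p = 0.0158) and -0.24 for BCOR (SE 0.07, adjusted p = 0.0482). The PCGF1 call was lost without shRNA-B 1 or 3 or shRNA-D 1, 2 or 3 (adjusted p up to 0.127), and the BCOR call without any of 11 of the 12 libraries (adjusted p up to 0.245). The other 5 variant genes were YAF2, a relative of RYBP, KDM2B, BCORL1, a relative of BCOR, USP7, a deubiquitinase bound to the PCGF1 complex, and L3MBTL2, a partner of PCGF6. None of them was called in any comparison. Their log2 fold changes ran from -0.08 to 0.07 with shRNA-B and from -0.29 to -0.02 with shRNA-D.

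In PR-DUB, BAP1, the deubiquitinase itself, was at 136, 127, 127 and 118 CPM in scramble, at 147, 145, 131 and 121 CPM with shRNA-B and at 121, 114, 120 and 113 CPM with shRNA-D. In all 4 numbers shRNA-B was above and shRNA-D below scramble. Each hairpin group overlapped scramble, while the 2 hairpin groups did not overlap each other, by a narrow margin (121.4 against 121.3 CPM). The difference of shRNA-D from shRNA-B was -0.22 (SE 0.08, adjusted p = 0.377), called with the block (-0.21, SE 0.05, adjusted p = 0.0202) and lost without any of 9 of the 12 libraries (adjusted p up to 0.161). ASXL2, one of the ASXL proteins that activate BAP1, was at 74.0, 99.4, 102 and 68.5 CPM in scramble, at 77.1, 68.1, 76.1 and 65.3 CPM with shRNA-B and at 71.8, 76.0, 76.3 and 73.1 CPM with shRNA-D. Scramble 2 and 3 held its 2 highest values and the groups overlapped. ASXL2 had a log2 fold change of -0.23 for the mean of both hairpins (SE 0.11, adjusted p = 0.88). ASXL1 lay between -0.03 and 0.04 with the hairpins.

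Replicate number gave more calls among the members than either hairpin. In the model with group and number, 25 of 37 members were called for number, beside 47.2% of all tested genes. By role these were 3 of 6 core PRC2 genes, 4 of 5 accessory genes, 1 of 2 ligases, 7 of 10 canonical and 10 of 11 variant PRC1 genes and 0 of 3 PR-DUB genes. PHC1 had the smallest p: its mean over the 3 libraries of a number was 51.7 CPM in number 1, 81.7 in number 2, 73.5 in number 3 and 55.3 in number 4 (adjusted p = 9.76e-06). SCMH1 showed the same order, with 39.2, 55.5, 51.3 and 46.2 CPM (adjusted p = 0.000181). BCORL1 was high in numbers 1 and 4, with means of 77.5, 59.3, 51.7 and 73.8 CPM (adjusted p = 0.00018). EZH1 had means of 32.3, 39.9, 35.4 and 45.2 CPM (adjusted p = 0.000124). PHF19 had 40.6, 37.0, 31.2 and 28.4 CPM (adjusted p = 0.000123) and PCGF6 had 35.7, 47.9, 50.6 and 54.3 CPM (adjusted p = 0.000173). The labels and the design text do not say what a number stands for.

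**Figure D4:**
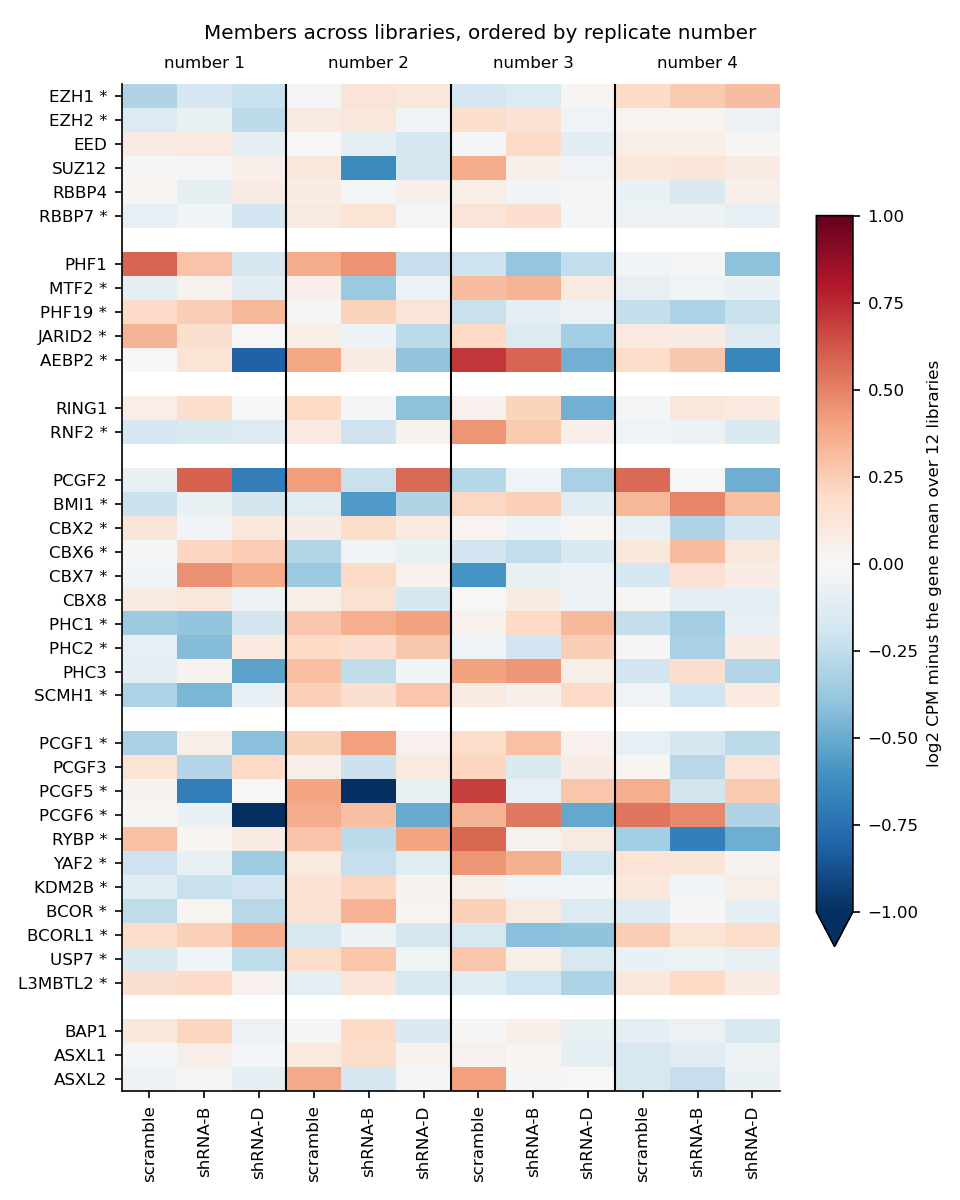
Log2 CPM of each of the 37 members minus its mean over the 12 libraries (colour, from -1 to 1, lower values drawn in the darkest blue), with libraries ordered by replicate number and, within a number, by group. Asterisks mark the 25 members called for number: rows such as PHC1 and BCORL1 change colour between numbers, whereas AEBP2 and PCGF6 are blue in every shRNA-D column.

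Other genes of the pathway were taken from lists that were not chosen for how they moved here, though earlier results of these data were known. Of 34 further Polycomb partners, 2 were called lower with shRNA-B, WDR5 and MBD5, beside 0.876% of all tested genes called, and 7 with the block (2 higher, 5 lower), beside 9.58%. None was called with shRNA-D, where 4 had an unadjusted p under 0.05, limma-voom and DESeq2 called 0, and 4 were lower with the block, beside 2.26% of all tested genes. WDR5, a WD-repeat protein shared by the PCGF6 complex and the activating KMT2 complexes, was at 97.6, 106, 100 and 99.1 CPM in scramble, at 44.0, 70.8, 60.2 and 58.9 CPM with shRNA-B and at 92.5, 96.3, 89.0 and 93.5 CPM with shRNA-D. Its shRNA-B libraries lay below all others, and it fell by 0.79 on the log2 scale (SE 0.12, adjusted p = 0.00522). MBD5, a partner of PR-DUB, fell by 0.58 (SE 0.10, adjusted p = 0.0147), from a mean of 22.5 to 15.0 CPM. CSNK2A2, a kinase subunit of the PCGF5 complexes, and ASXL3, another ASXL protein, were lower with shRNA-B with the block alone (log2 -0.31 and -0.75 without it, block adjusted p = 0.00495 and 0.000294). WDR5, CSNK2A2 and ASXL3 hold GTCAACA in their 3′ UTR, and MBD5 does not. In the further lists, without the unsearched cell cycle genes, 10 of 117 tested genes hold it (8.55%, beside the 7.80% given above). Their log2 fold changes with shRNA-B ran from -0.83 to 0.13 (median -0.32, 9 of 10 below 0), the highest being that of RBBP5. TACTACA is in 8 of the 117 (6.84%, beside 8.77% of the genes ranked), at -0.78 to -0.03 with shRNA-D (median -0.21, all 8 below 0). Expressed genes of these lists were among those ranked to choose the words, so these values add no independent support. SCML2, named after its values were seen, was the other partner called between the hairpins besides WDR5. It was lower with shRNA-D than with shRNA-B by 0.52 (SE 0.10, adjusted p = 0.0281). Its means were 52.6 CPM (scramble), 68.9 CPM (shRNA-B) and 48.0 CPM (shRNA-D). Against scramble it was higher with shRNA-B with the block alone (log2 0.39 without it, block adjusted p = 0.00936). It was not called with shRNA-D (log2 -0.13).

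Of 21 factors that oppose Polycomb silencing, KDM6A, the demethylase that removes the PRC2 mark, was the only one called with shRNA-B. It was at 83.0, 90.6, 94.7 and 71.2 CPM in scramble, at 61.1, 55.3, 61.3 and 51.8 CPM with shRNA-B and at 82.7, 83.3, 81.4 and 75.9 CPM with shRNA-D. All 4 shRNA-B libraries lay below the 8 others. KDM6A fell by 0.57 on the log2 scale (SE 0.10, adjusted p = 0.0147) and differed between the hairpins by 0.50 (SE 0.10, adjusted p = 0.0327). GTCAACA was not found in its 3′ UTR. With the block ARID1A, a subunit of BAF chromatin remodellers, and KMT2D, a methyltransferase at enhancers, were also lower with shRNA-B (log2 -0.31 and -0.30, block adjusted p = 0.00893 and 0.0192), and DPY30, a core subunit of the KMT2 complexes, was higher (0.23, block adjusted p = 0.0205). None of the 21 was called with shRNA-D, with or without the block or by limma-voom or DESeq2, and none had an unadjusted p under 0.05.

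Textbook Polycomb targets are the HOX genes and other developmental regulators. Of 38 tested HOX genes none was called against scramble with either hairpin. With shRNA-B 7 had an unadjusted p under 0.05, limma-voom called 0 and DESeq2 called 3, and with shRNA-D the counts were 2, 0 and 1. With the block 13 were called with shRNA-B, 10 higher and 3 lower, beside the 9.58% of all tested genes given above, and 2 with shRNA-D, 1 in each direction. The median log2 fold change of the HOX genes was 0.16 with shRNA-B, with 31 of 38 fitted above 0, and -0.01 with shRNA-D. HOXA11, a posterior patterning gene, was at a mean of 33.4 CPM (scramble), 43.8 CPM (shRNA-B) and 33.6 CPM (shRNA-D), with a log2 fold change with shRNA-B of 0.39 (SE 0.10, adjusted p = 0.0979, and 0.000298 with the block). HOXC11 was at 14.3, 16.9 and 18.3 CPM in the same order and was called higher with both hairpins with the block (adjusted p = 0.0145 and 0.00325). HOXC13 had a mean of 12.3 CPM in scramble and 7.49 CPM with shRNA-B (log2 -0.72, SE 0.16, adjusted p = 0.0569, and 0.0013 with the block), and exceeded its shRNA-B level under shRNA-D by 0.77 (SE 0.16, adjusted p = 0.0378). HOXC13 holds GTCAACA in its 3′ UTR. HOXB9 was lower with shRNA-B with the block alone (log2 -0.29, block adjusted p = 0.0182). HOXB2, named after its values were seen, was called lower with shRNA-D than with shRNA-B by 0.47 (SE 0.09, adjusted p = 0.0262).

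Of 24 tested targets outside the HOX clusters none was called against scramble. With shRNA-B 1 had an unadjusted p under 0.05, and limma-voom and DESeq2 called 0; with shRNA-D the counts were 2, 0 and 1. CDKN2B, a cell cycle inhibitor next to CDKN2A and a long-known Polycomb target, was at 12.7, 6.95, 8.53 and 9.59 CPM in scramble, at 10.8, 5.23, 5.74 and 7.98 CPM with shRNA-B and at 6.93, 3.91, 4.33 and 6.79 CPM with shRNA-D. In all 4 numbers the order was shRNA-D below shRNA-B below scramble. The shRNA-D and scramble libraries did not overlap, by a narrow margin, and shRNA-B overlapped both. With the block CDKN2B fell by 0.79 with shRNA-D (adjusted p = 0.000268) and by 0.37 with shRNA-B (adjusted p = 0.018), and without it neither passed (adjusted p = 0.64 and 0.924). CDKN2B holds the words of both hairpins, GTCAACA and TACTACA, in its 3′ UTR, and also CTAACTC, with 1 match each. The part of these words in its fall was not tested. Of the 24 targets, the block called 2 with shRNA-D, both lower and CDKN2B among them, beside 2.26% of all tested genes called lower. With the block 4 were called with shRNA-B, beside 9.58% of all tested genes: CDKN2B, LHX2 and SIX2 were lower and HAND1, named after its values were seen, was higher. LHX2, a LIM homeobox gene, and SIX2, a regulator of kidney progenitors, had log2 fold changes of -0.72 and -0.18 (block adjusted p = 0.00116 and 0.0485), and HAND1, a regulator of heart development, of 0.29 (block adjusted p = 0.0487). CDKN2A was not called, with a log2 fold change of 0.10 with shRNA-B and 0.07 with shRNA-D (SE 0.09 for each).

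Of 16 cell cycle genes none was called against scramble with either hairpin, with 5 and 2 at an unadjusted p under 0.05, 0 called by limma-voom for both and 3 and 1 by DESeq2. With the block 7 were higher with shRNA-B and 2 with shRNA-D, beside 4.04% and 1.05% of all tested genes, and none was lower. GINS1, a subunit of the replicative helicase, and E2F1, a transcription factor of the G1 to S transition, were higher with both with the block alone: GINS1 had log2 fold changes of 0.62 and 0.45 (block adjusted p = 0.00024 and 0.00535) and E2F1 of 0.30 with each (block adjusted p = 0.00513 and 0.0114). MCM5 and MCM6, helicase subunits, were higher with shRNA-B with the block alone (log2 0.32 and 0.25, block adjusted p = 0.00304 and 0.0112). The summed level of the 16 genes was 3660 to 4329 CPM (scramble), 3838 to 4526 CPM (shRNA-B) and 3826 to 4041 CPM (shRNA-D), so the groups overlapped. The part of cell cycle differences in the values of the members was not tested.

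**Figure D5:**
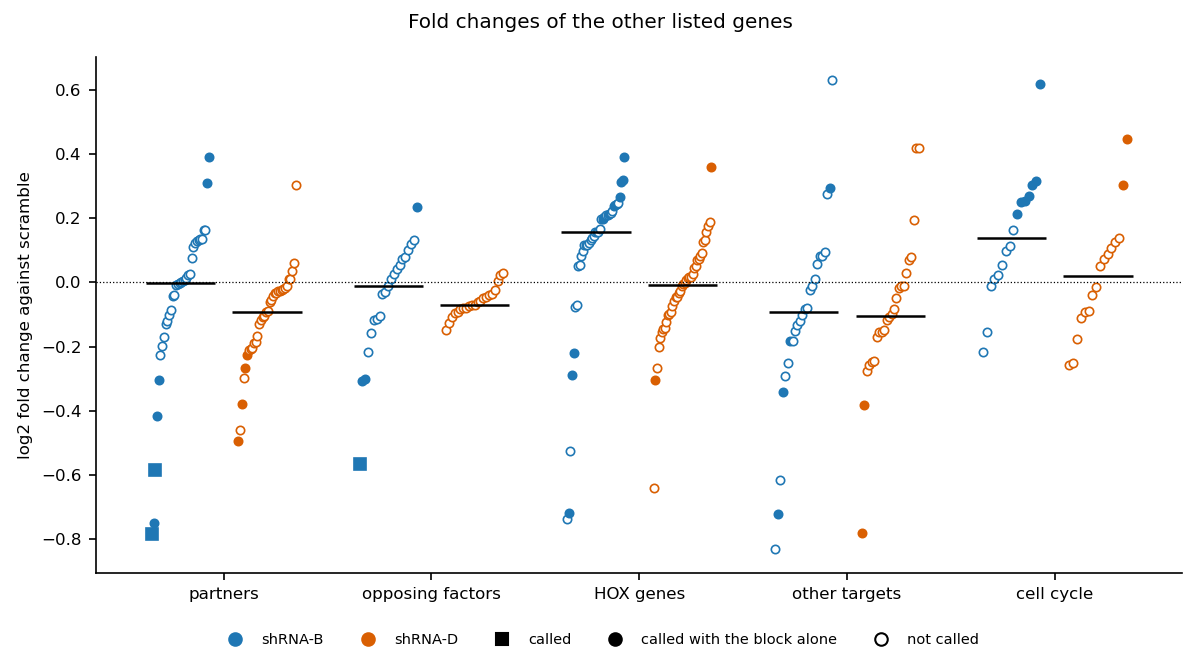
Log2 fold change against scramble (y axis) of the tested genes in each further list, for shRNA-B (blue) and shRNA-D (orange): 34 partners, 21 opposing factors, 38 HOX genes, 24 other targets and 16 cell cycle genes. Each point is 1 gene and each line a median; the squares, the only calls without the block, are WDR5, MBD5 and KDM6A, all lower with shRNA-B.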

How the data were processed

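The authors deposited 1 table of estimated counts per gene, which need not be whole, made with fastp and kallisto per the submitters' processing notes. Tool versions and the annotation: not given in the sources used here. Counts were rounded to whole numbers (totals 68737402 to 102644699). The table has 85298 identifiers, 60443 with a symbol, and 26366 passed filterByExpr. edgeR 4.0.16 in R 4.3.3 fitted groups over all 12 libraries (TMM scaling, robust quasi-likelihood F-test, Benjamini-Hochberg adjustment, calls under 0.05). limma 3.58.1 (voom), DESeq2 1.42.0, other scalings, no filter, left-out libraries and numbers and a replicate block were alternatives. The scripts were tested on simulated data.

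The design text calls the 4 libraries of a group biological replicates, and the labels name no separate cultures, so p-values reflect only how these libraries vary, which may be technical. Deviations from group means correlated at 0.140 to 0.619 in all 12 same-number pairs, so the numbers were taken to pair the libraries. The common biological coefficient of variation was 25.0%, and 12.1% with the block.

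Members and lists were chosen with earlier results of these data known. Values in every library are given for EZH2, SUZ12, RNF2, BMI1, each member called in any contrast with or without the block, and, in each of 6 role groups, the member with the smallest p averaged over both hairpins. From each further list up to 4 called genes are named, and for replicate number the 6 members with the smallest p. Some genes that the rule or the marker lists hold are not reported here.

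The word search, chosen after the data were seen, used Python 3.11.15 and numpy 2.4.6 on all 16384 words of 7 bases, in genes averaging 1 CPM or more whose 3′ UTR has 50 bases or more. Words in under 100 genes were left out, and log2 fold changes were clipped at 1.5 after regression on UTR length and A+T content.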

Additional observations from a re-analysis of the deposited data

Results flagged for a closer look

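EZH2 in shRNA-D library 1 stood at 130 CPM, apart from the other 3 shRNA-D libraries, of which the nearest was at 150 CPM. The gap was 0.873 of the group's range. This was 1 of 111 groups of 4 libraries checked, and chance marks about 1 in 20.

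The effects of the hairpins differed by a direct test for 3 members. The log2 fold change of shRNA-D minus that of shRNA-B was -0.86 for AEBP2, -0.92 for PCGF6 and 0.36 for PCGF3.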

How the results depend on the processing

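No call that a member had with or without the block changed direction under any alternative run. With the replicate block, which pairs libraries by number, the members called were 4 for shRNA-B, 4 for shRNA-D, 5 for the mean of both hairpins and 10 between the hairpins, against 0, 1, 0 and 3 without it. With the block and DESeq2 size factors they were 4, 4, 5 and 8, with the block and upper-quartile scaling 4, 4, 5 and 9, and with the block and total-count scaling 4, 5, 5 and 9. Without the block, shRNA-B gave 2 with upper-quartile scaling, 1 with total-count scaling, 1 with no filter and 2 with DESeq2. In the same settings shRNA-D gave 2 each. DESeq2 called 1 for the mean. Between the hairpins a fit to only the groups compared called 1. Leaving out a number from all groups gave 1 call for shRNA-D and 1 between the hairpins without number 1, and 0 for both without number 2, 3 or 4. Leaving out 1 library in turn gave 0 to 1 calls for shRNA-B (3 to 5 with the block), 0 to 2 for shRNA-D (4 to 6 with the block), 0 for the mean (3 to 6 with the block), 0 to 4 between the hairpins (5 to 12 with the block, and 7 without scramble 1 or scramble 4) and 17 to 25 for replicate number. Apart from the replicate block, the share of all tested genes called in each alternative setting is not given here. The cause of these shifts was not tested. Transcripts that share sequence with a copy rest on kallisto's division of reads. PHF1 had the lowest level of the members, at under 1 CPM, so its fold changes rest on the fewest counts. What sets that level was not tested.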
